A study of Drosophila melanogaster with 4 samples.

Results

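CP190 clusters are regions of CP190 enrichment. Those next to the centromeres have midpoints in the 2 Mb at the centromere-facing end of the sequence of chromosome arm 2L, 3L, 3R or X. They number 315 of the 7960 clusters in the authors' combined list, with 57 on 2L, 50 on 3L, 129 on 3R and 79 on X. The choice used position alone, on release 5 of the FlyBase genome. The windows were 21011545 to 23011544 on 2L, 22543558 to 24543557 on 3L, 1 to 2000000 on 3R and 20422828 to 22422827 on X. The remaining 5892 clusters on the same 4 arms, over 89.9 Mb, served as the comparison. Together the 4 arms hold 6207 of the 7960 clusters, and other sequences, such as arm 2R, were not used.

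CP190 was mapped by chromatin immunoprecipitation and sequencing (ChIP-seq) in whole embryos of Drosophila melanogaster, strain Oregon-R, wild type in genotype. The labels give a stage of 14 to 16 h, and all 4 samples share strain, genotype and stage. There were 2 ChIP samples made with the antibody CP190-HB and 2 input samples of chromatin that was not immunoprecipitated, and each ChIP replicate was called by the authors against 1 input. The replicate lists hold 4461 and 4900 clusters, of which 157 and 174 lie in the 4 windows. Whole embryos mix all cell types, and nothing in the labels says that the replicates came from separate collections, so differences between the lists may be technical. Read depth is unknown.

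Insulator proteins such as CTCF, BEAF-32 and Su(Hw), which bind DNA directly, bring CP190 to chromatin, where it acts as a shared cofactor. It is known for binding near active promoters and at borders of chromatin domains. Sequence towards a centromere passes from gene-rich euchromatin into heterochromatin, which is dense in repeats and transposons, carries methylated histone H3 lysine 9 and its reader HP1a, and holds few but often long genes. The border lies at a different distance from the end of the assembled sequence on each arm. Reads from repeats are hard to place, and how much of each window could take up reads was not measured here.

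CP190 clusters were sparser next to the centromere than along the rest of the arm on 2L, 3L and X, and about as dense on 3R. The combined list had 39.4 clusters per Mb in the 4 windows together and 65.6 per Mb in the rest, a ratio of 0.601. The ratio was 0.394 on 3L, where 25 clusters per Mb stood against 63.5. It was 0.472 on 2L (28.5 against 60.3 per Mb) and 0.556 on X (39.5 against 71.1 per Mb). On 3R it was 0.960, with 64.5 against 67.2 per Mb. The ratio depends on the size of the window on 2L and 3L, with 0.235 and 0.160 in windows of 1 Mb and 0.707 and 0.554 in windows of 3 Mb.

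In both replicate lists 3R again had the highest ratio and X the next. Replicate 1 had ratios of 0.374 on 2L, 0.404 on 3L, 0.456 on X and 0.853 on 3R. Replicate 2 had ratios of 0.434 on 2L, 0.295 on 3L, 0.451 on X and 0.902 on 3R. In replicate 1 the lowest was 2L, and in replicate 2 and the combined list it was 3L. Over the 4 windows together the ratios were 0.526 and 0.525 in the replicates.

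All 4 arms lay below their own rest in all 3 lists. An exact two-sided sign-flip permutation test over the 4 arms gave p = 0.125 in each list, which is the smallest p that 4 arms allow, so this design cannot pass 0.05. The mean log2 ratio over arms was -0.83 ± 0.55 (SD, n = 4 arms) in the combined list, -1.02 ± 0.54 in replicate 1 and -1.07 ± 0.67 in replicate 2. With only 1 arm that stands apart, the difference between 3R and the other arms was not tested.

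The clusters also covered less of the sequence. They took up 7.56% of the 4 windows and 13.6% of the rest in the combined list. By arm the covered share was 4.44% on 3L, 5.31% on 2L, 7.49% on X and 13.0% on 3R, against 12.4 to 15.1% in the rest of the arms. The covered share was lower in the window on all 4 arms (exact sign-flip permutation p = 0.125, the smallest possible).

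Set beside every whole 2 Mb window of the same arm, counted from the centromere, the window at the centromere held the fewest clusters on 2L, 3L and X in each of the 3 lists. On 2L its 57 combined clusters compare with 83 to 149 in the other 10 windows. On 3L its 50 compare with 96 to 157 in the other 11, and on X its 79 compare with 123 to 189 in the other 10. On 3R the 129 clusters fell inside the range of the other 12 windows, which was 117 to 157. There the window ranked 3 from the lowest of 13 in the combined list, in a tie with 1 other, and 2 from the lowest in replicate 2. The 2 Mb at the opposite, telomere-facing ends held 122 combined clusters on 3R, 126 on 2L, 132 on 3L and 165 on X.

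**Figure D1:**
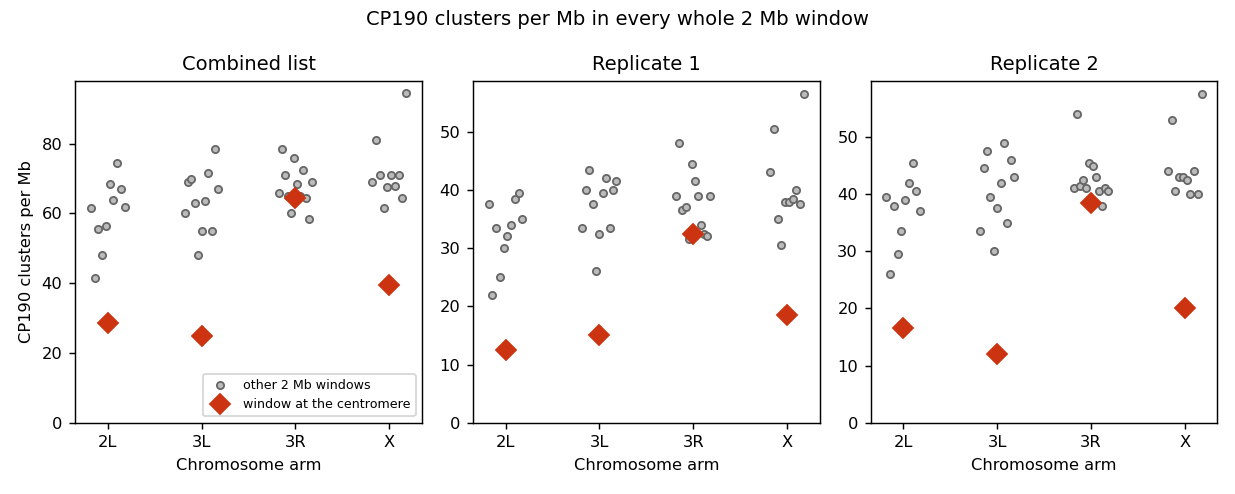
CP190 clusters per Mb (vertical axis) in each whole 2 Mb window of the 4 chromosome arms (horizontal axis), for the combined list and the 2 replicate lists, each on its own scale. Red diamonds mark the window at the centromere and grey points the other windows; the diamonds lie under all grey points on 2L, 3L and X and among them on 3R.

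Within the windows the lowest numbers lay in the 1 Mb next to the centromere. There the combined list held 14 clusters on 2L, 10 on 3L, 30 on X and 60 on 3R. In the next 1 Mb it held 43, 40, 49 and 69 in the same order of arms. Taking 2L, 3L and X together, the density was 18 clusters per Mb in the final 1 Mb, 44 in the second, 62.7 in the third, 64.3 in the fourth and 70.7 in the fifth.

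In steps of 250 kb, the density of the rest of the arm was first reached at 1.75 Mb from the end on 2L (list mean of 15.1 clusters per step) and at 1.5 Mb on 3L (15.9 clusters per step), in the combined list and in both replicates. On X the combined list and replicate 1 first reached it at 1.0 Mb, in 1 step alone of the window, and replicate 2 at 2.75 Mb. Of the 8 steps in a window, 7 lay below the rest on each of 2L, 3L and X in the combined list. On 3R the very first step, with 22 combined clusters, was already above the mean of 16.8, and 5 of the 8 steps lay below it. Replicate 2 also reached its mean there in the first step, and replicate 1 at 0.5 Mb. In the last 750 kb of 2L replicate 1 listed 0 clusters, replicate 2 listed 1 and the combined list 5. The last 750 kb of 3R held 23, 30 and 52 in the same lists.

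**Figure D2:**
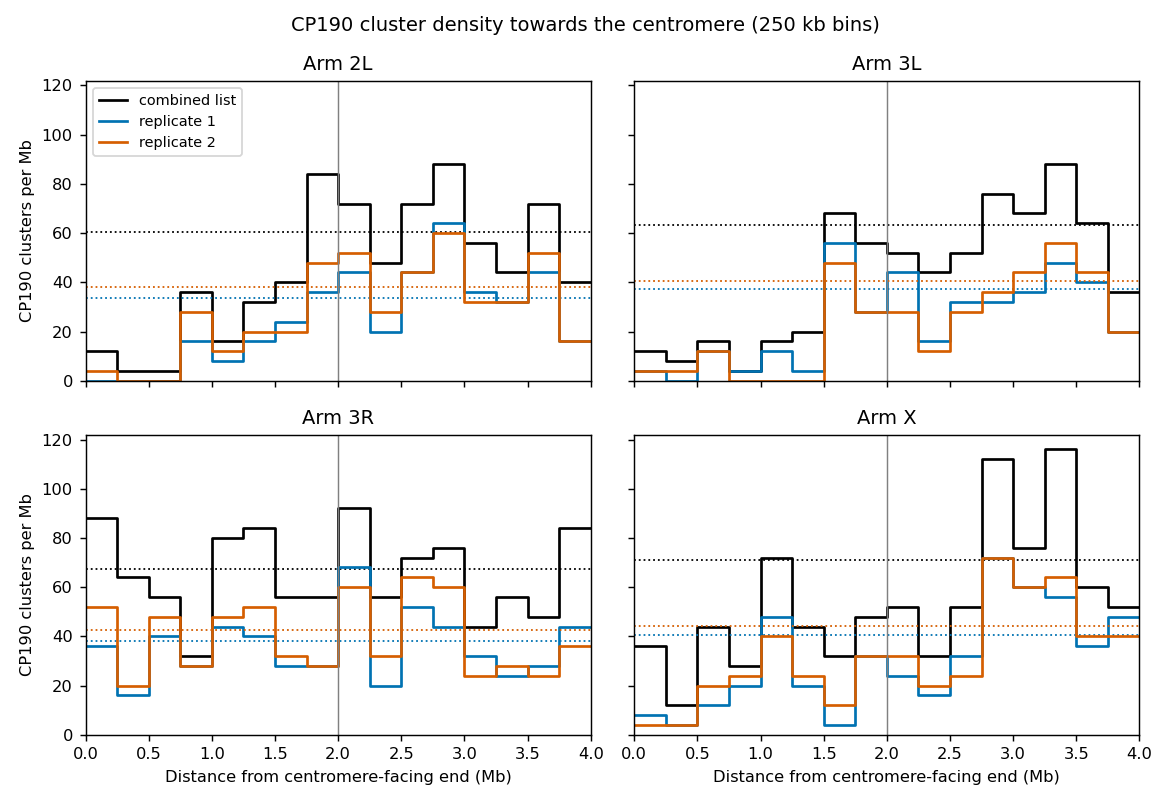
CP190 clusters per Mb (vertical axis) in 250 kb bins against distance from the centromere-facing end of the assembled arm in Mb (horizontal axis), for the combined list (black), replicate 1 (blue) and replicate 2 (orange). Dotted lines give the density in the rest of the arm and the grey line the 2 Mb limit; the black line stays at or below 36 clusters per Mb over the last 1 Mb of 2L and 3L and runs around its dotted line on 3R.

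The final 1 Mb of 2L shows how the clusters thin out. At its inner edge lay a strong cluster at 22017991 to 22020308 (2318 bp), with log2 scores of 1.62 in the combined list, 1.48 in replicate 1 and 1.78 in replicate 2. The log2 score is the authors' single value per cluster, taken here as the log2 of an enrichment ratio, and it ranks clusters only within a list. Next to it, at 22023394 to 22025672, lay a cluster with a combined log2 score of 0.58 that was also found in both replicates. The last cluster found in both on this arm was at 22133357 to 22135339, with 0.36. Further towards the centromere came 3 long empty stretches of 266 kb, 256 kb and 155 kb, which are set apart by single clusters of 1029 and 1036 bp that neither replicate listed. The cluster nearest to the end, at 22983913 to 22985584 (26.8 kb from it), had a combined log2 score of 0.60 and 0.92 in replicate 2, and replicate 1 listed none there.

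On 3L the final 1 Mb held 10 clusters, of which 4 were found in both replicates and 6 in neither. The 4 were not weak. The one nearest to the centromere, at 24455452 to 24458898 (86.4 kb from the end, 3447 bp), had log2 scores of 1.21, 1.30 and 1.45 in the combined list, replicate 1 and replicate 2. The other 3 lay at 23799545 to 23801777 (1.01), 23891481 to 23893656 (0.86) and 23915159 to 23917248 (0.81). The 6 found in neither were 1001 to 1133 bp long.

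Stretches of more than 100 kb without a combined cluster were concentrated on the same arms. The windows held 14 of them, 6 on 2L, 4 on 3L, 4 on X and 0 on 3R, adding up to 2.40 Mb of the 8 Mb. The rest of the arms held 31 such stretches between clusters, adding up to 3.74 Mb of 89.9 Mb. The longest in a window was 284 kb on X, at 21508276 to 21791840, and both replicate lists were empty there too. Those on 2L and 3L were 266 kb (22180563 to 22446390) and 214 kb (24070512 to 24284665). In the rest of these arms the longest was 168 kb on 2L, 162 kb on 3L and 140 kb on X. The longest on 3R was 81.1 kb in the window and 151 kb in the rest. The sparser replicate lists did have stretches of more than 100 kb between clusters in the 3R window. Replicate 1 had 4 there and replicate 2 had 3, the longest being 143 and 162 kb. In the same lists the windows held 2 and 3 on 2L, 4 and 3 on 3L and 7 and 6 on X. Together the 4 windows held 17 and 15, against 102 and 103 in the rest. In replicate 1 those on 2L added up to 0.348 Mb in the window and 3.74 Mb in the rest. Those on 3R added up to 0.488 and 4.16 Mb in that list. Stretches between clusters were thus not concentrated in the 2L window in replicate 1. In both replicate lists the longest stretch between clusters of 3L and X lay in the window. On 2L it did so in replicate 2, while replicate 1 had 230.4 kb in the window and 286 kb in the rest, with the empty sequence beyond its last cluster not counted. Of the 14 stretches, 9 held no cluster of either replicate list and the other 5 held 1 or 2.

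Neighbouring clusters of the combined list also lay farther apart. The median distance between neighbouring midpoints was 12263 bp in the windows and 9318.5 bp in the rest. It was 17161 bp on 3L, 13518 bp on 2L, 10619 bp on X and 10389.5 bp on 3R, each above the rest of its arm (exact sign-flip permutation p = 0.125, the smallest possible). Each replicate list had 3 arms above their rest and X below it, at 13115 against 13831 bp in replicate 1 and 12170 against 12727 bp in replicate 2 (exact sign-flip permutation p = 0.25 in each). Neighbours closer than 5 kb made up 20.6% of the distances in the windows and 26.3% in the rest, with 25.8 and 25.6% on 3R.

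Replicate support was lower in the windows when clusters of all lengths were counted. Of the 315 clusters, 125 (39.7%, exact 95% interval 34.2 to 45.3%) overlapped a cluster of both replicates, where the background over all 6207 clusters of the 4 arms was 47.4%. In the rest of the arms the share was 47.8%. A further 118 (37.5%, 32.1 to 43.1%) were found in neither replicate, where the background was 31.5% and the rest had 31.1%. The remaining 25 were found in replicate 1 only and 47 in replicate 2 only. These intervals are of the Clopper-Pearson kind and cover counting error over clusters only.

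The share found in both was lower than in the rest on all 4 arms, with a mean difference of -8.40 ± 2.13 percentage points (SD, n = 4 arms, exact sign-flip permutation p = 0.125, the smallest possible). It was 36.8% on 2L, 40.0% on 3L, 40.3% on 3R and 40.5% on X. The share found in neither was 35.1% on 2L, 42.0% on 3L, 32.6% on 3R and 44.3% on X. It was higher than in the rest on all 4 arms, with the same p.

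Cluster length differed alongside replicate support. The shortest cluster of either replicate list is 1301 bp long, while the combined list reaches down to 1001 bp. Clusters shorter than 1301 bp made up 27.9% of the windows (88 clusters) and 18.6% of the rest. Among clusters of 1301 bp or more, 55.1% of 227 were found in both, where the background was 58.6%, and 17.2% in neither, where it was 17.5%. At these lengths 2 arms lay above and 2 below their rest in either share (exact sign-flip permutation p = 0.75 for both replicates and p = 1 for neither). The median length was 1905 bp in the windows and 2000 bp in the rest, and was lower on all 4 arms (p = 0.125, exact sign-flip permutation). It was lowest on 3L, at 1683 bp against 2010 bp.

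Over the 4 arms together, short clusters had a density closer to that of the rest than longer ones did. Those shorter than 1301 bp had 11 per Mb in the windows and 12.2 per Mb in the rest, a ratio of 0.900. They had ratios of 0.576 on 2L, 0.870 on 3L, 0.912 on X and 1.22 on 3R, and did not lie on 1 side of the rest on all arms (exact sign-flip permutation p = 0.5). Clusters of 1301 bp or more had 28.4 against 53.3 per Mb, a ratio of 0.532, and were sparser on all 4 arms (p = 0.125, exact sign-flip permutation). On 3L there were 14.5 against 51.4 per Mb, a ratio of 0.282, and the ratio was 0.448 on 2L, 0.470 on X and 0.905 on 3R. On 3R the longer class was thus near the density of the rest and the short class above it, and on 2L both were well below it.

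Support divided the clusters in a like way. Clusters found in both replicates had a density ratio of 0.499, with 0.322 on 3L, 0.362 on 2L, 0.478 on X and 0.818 on 3R. Clusters found in neither had 0.722, with 0.510 on 2L, 0.552 on 3L, 0.770 on X and 1.03 on 3R. Whether the ratios of these classes differ from each other was not tested. The split at 1301 bp and the class found in both were planned, and the other classes were chosen after their values had been seen.

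**Figure D3:**
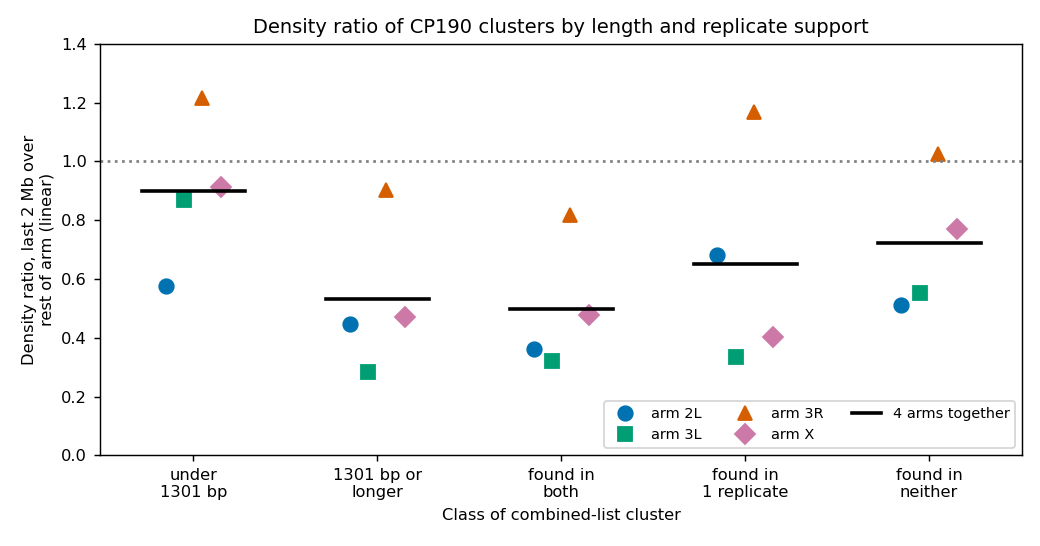
Density ratio of the 2 Mb windows over the rest of the arm (vertical axis, linear, 1 meaning equal density) for combined-list clusters split by length and by replicate support (horizontal axis). Symbols are the 4 arms and black bars the arms together; the bar is 0.900 for clusters under 1301 bp and 0.499 for clusters found in both replicates, and 3R is the highest symbol in every class.

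The log2 scores of the clusters next to the centromeres were close to those of the rest. The median log2 score was 0.40 in the windows and 0.42 in the rest, and the window was lower on 3 arms and higher on 1 (mean difference -0.0030 ± 0.0144, SD, n = 4 arms, exact sign-flip permutation p = 0.625). For clusters found in both replicates it was 0.64 in the windows and 0.63 in the rest. For clusters found in neither it was 0.37 and 0.36. The 315 log2 scores ran from 0.12 to 3.28, with lower and upper quartiles of 0.33 and 0.60. Log2 scores of at least 1 were seen in 34 clusters (10.8%), where the background over the 4 arms was 9.78%.

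On 3R, where the density was close to that of the rest, a smaller share of the clusters lay high in the combined list. Above the median log2 score of the combined list lay 44 of its 129 clusters (34.1%), against 45.0% in the rest of 3R and 50.4% in the rest of all 4 arms. Their density ratio was 0.727, and that of the clusters at or below the median was 1.15. On 2L, 3L and X the ratios were 0.464, 0.425 and 0.524 above the median and 0.480, 0.367 and 0.612 at or below it. Counting the clusters above the median was planned, the count at or below it was added after the values had been seen, and both rest on the combined list.

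The highest-scoring cluster found in both replicates lay on X at 20630282 to 20632906 (2625 bp, 1791 kb from the end). It had log2 scores of 2.72 in the combined list, 2.65 in replicate 1 and 2.88 in replicate 2, and it was the first of all combined clusters on X by score. The next on X lay at 21044912 to 21047210 (1.35, with 1.38 and 1.34 in the replicates) and at 20661939 to 20664397 (1.23, with 1.28 and 1.27).

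On 3R the strongest cluster was also the longest of all 315. It spanned 794124 to 800242 (6119 bp) with a combined log2 score of 2.01. The highest-scoring replicate clusters inside it, at 794425 to 797951 with 2.28 and at 794139 to 797976 with 2.60, ranked 18 and 11 in their lists. The second lay at 951681 to 954077 (1.73, with 1.74 and 1.77) and the third at 1995488 to 1998011 (1.73, with 1.74 and 1.75). A cluster at position 2 to 1549, at the very start of the assembled 3R sequence, was found in both replicates with log2 scores of 0.63, 0.61 and 0.69.

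On 2L the strongest cluster found in both replicates lay at 21396194 to 21398597 (2404 bp), with log2 scores of 2.01, 1.82 and 2.25 in the combined list, replicate 1 and replicate 2. It was followed by the cluster at the inner edge of the final 1 Mb, described above, and by the longest of this arm at 21681036 to 21684836 (3801 bp, 1.37, with 1.61 and 1.43). On 3L the strongest was at 22886768 to 22890124 (1.48, with 1.77 and 1.59). The second was the cluster 86.4 kb from the end, and the third lay at 22816900 to 22819125 (1.06, with 0.78 and 1.35). The longest cluster of 3L, at 22829970 to 22833889 (3920 bp), had 0.41, and that of X, at 20929458 to 20933860 (4403 bp), had 1.13. Clusters of 3.5 kb or more were 16 of the 315 (5.08%), where the background was 6.64%, with 9 on 3R, 5 on X and 1 each on 2L and 3L.

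High log2 scores without replicate support came from short clusters. Of the 34 clusters with a log2 score of at least 1, 26 were found in both replicates, 7 in neither and 1 in replicate 1 only. In the rest 557 of 573 such clusters were found in both and 16 in neither. The 7 were 1001 to 1136 bp long, against 2225 to 6119 bp for the 26. In the rest the 16 were 1001 to 1530 bp long and the 557 were 2106 to 9760 bp long. The 2 highest scores of all 315 were among the 7. They were 3.28 on 2L at 21468414 to 21469414 and 3.13 on 2L at 21463369 to 21464369, and the nearest replicate cluster was 69830 and 64785 bp away. The highest cluster found in neither replicate had a log2 score of 2.37 on X (21803290 to 21804292), 1.77 on 3L (22988971 to 22989971) and 0.60 on 3R (1647689 to 1649396).

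These scores can be written as a ratio of whole numbers times 1 constant for the list. The denominators in lowest terms were 1 to 11 for the 7 clusters and 6 to 1807, with a median of 339.5, for the 26. In the rest they were 1 to 23 for the 16 found in neither. For 555 of the 557 found in both they were 1 to 1847, with a median of 265. Since that constant cannot be fixed beyond a simple factor, and the terms are in lowest terms, they cannot be taken as read counts.

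**Figure D4:**
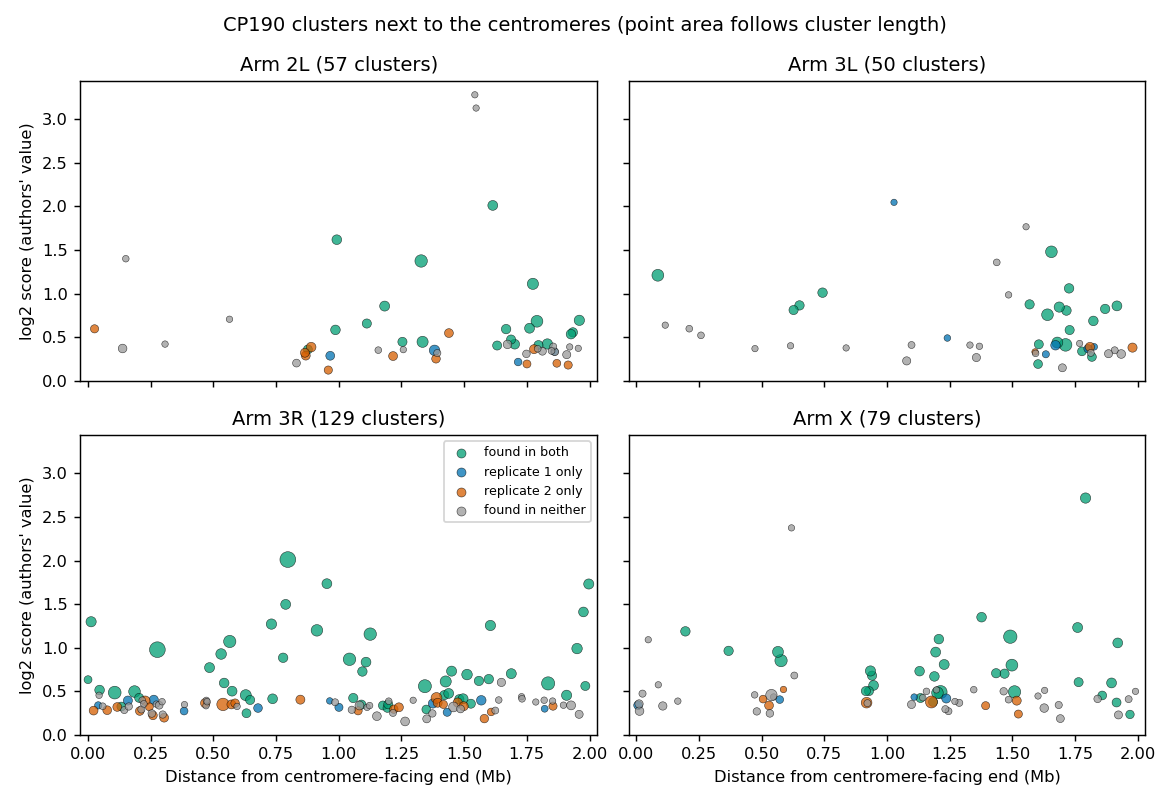
Log2 score (vertical axis, the authors' value) of the 315 clusters against distance from the centromere-facing end in Mb (horizontal axis), by arm, coloured by replicate support, with point area following cluster length. Mostly small grey points, found in neither replicate, make up most of the last 0.5 Mb of 2L, 3L and X. Larger green points, found in both, run along the whole of 3R among grey ones. The share found in both over the whole window was 40.3% on 3R, 40.0% on 3L, 40.5% on X and 36.8% on 2L.

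Most clusters of 1 replicate list in the windows overlapped a cluster of the other. Of the 157 clusters of replicate 1, 128 (81.5%, 95% interval of 74.6 to 87.3%) met at least 1 cluster of replicate 2. Of the 174 of replicate 2, 126 (72.4%, 65.1 to 78.9%) met one of replicate 1. In the rest of the arms the shares were 85.6 and 76.5%. By arm the share for replicate 1 ran from 70.0% of 30 on 3L to 89.2% of 37 on X. For replicate 2 it ran from 63.6% of 33 on 2L to 83.3% of 24 on 3L. A part of 3L differed between the lists, as replicate 1 listed 5 clusters between 0.75 and 1.5 Mb from the end and replicate 2 listed 0. The arms did not lie on 1 side of their rest in either list (exact sign-flip permutation p = 0.5 and 0.625, n = 4 arms).

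Over 124 one-to-one pairs in the windows, log2 scores had a Spearman correlation of 0.847 across clusters and a Pearson correlation of 0.928, against 0.817 and 0.905 over 2786 pairs in the rest. Clusters are not independent replicates, so no p is given. Spearman's value ran from 0.621 over 21 pairs on 2L to 0.880 over 53 pairs on 3R. Replicate 2 had the higher score in 91 of the 124 pairs (73.4%), against 2004 of 2786 pairs (71.9%) in the rest. Its mean excess was 0.10 ± 0.17 (SD, n = 124 pairs) in the windows and 0.10 ± 0.17 (SD, n = 2786 pairs) in the rest. The 2 lists were scored separately, and the offset between them was not particular to the windows. Of the replicate clusters in the windows, 153 of 157 and 173 of 174 overlapped a combined cluster.

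**Figure D5:**
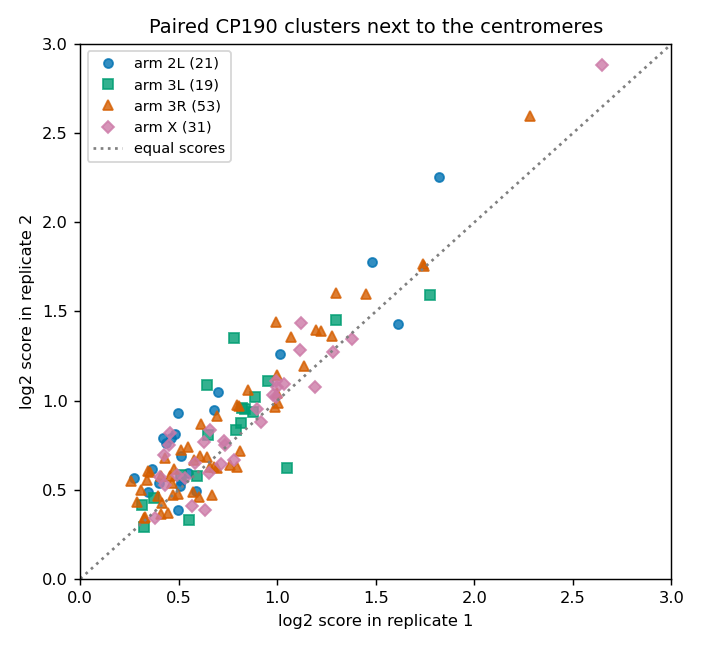
Log2 score in replicate 2 (vertical axis) against replicate 1 (horizontal axis) for the 124 one-to-one pairs of replicate clusters in the windows, by arm. The dotted line marks equal scores; most points lie near or above it, and the highest is the X cluster with 2.65 and 2.88.

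At the 2 Mb limit, which is a fixed distance and no feature of the data, clusters just inside had combined log2 scores of 0.69 on 2L (21051021 to 21053639), 0.38 on 3L (22564128 to 22566200), 1.73 on 3R (1995488 to 1998011) and 0.50 on X (20431994 to 20433002). Those just outside had 0.40 on 2L (20950637 to 20951721), 0.40 on 3L (22489845 to 22491885), 0.56 on 3R (2015370 to 2017449) and 1.33 on X (20395083 to 20397343). The genes at any of these places were not analysed here, since no annotation or genome of release 5 was used.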

How the data were processed

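The submitters' processing notes name Bowtie 0.12.7. A peak caller, its thresholds and the way the replicates were combined were not given in the sources used here. Positions are on FlyBase release 5, per the file headers, and count from 1. The authors deposited 1 value per cluster, treated as log2 of an enrichment ratio. With base 2, 7954 of 7960 combined values were whole-number ratios times 1 constant (denominator up to 2000, relative tolerance 1e-12), and with base e or 10 at most 0.440%.

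Midpoints placed clusters, and an overlap of 1 bp counted as replicate support. Differences between windows and the rest were tested over the 4 arms by an exact sign-flip permutation, which can reach p = 0.125. Counting was checked on simulated lists, overlap on thinned copies of the combined list and the test on set values. The alternatives tried varied window, overlap, score, length, merging, list and arms.

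Named clusters followed a rule by arm: the 3 highest found in both replicates, the highest found in neither, the longest, the nearest to the end, those at the 2 Mb limit and the longest empty stretch. Others, in the final 1 Mb of 2L and 3L and the second-highest score of 2L, were chosen after their values were seen. The members and comparisons were chosen with earlier results of these data known. Tools were Python 3.11.15, pandas 2.3.3, NumPy 2.4.6, matplotlib 3.10.9 and SciPy 1.17.1.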

Additional observations from a re-analysis of the deposited data

How the results depend on the processing

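Over 7 results for the windows as a whole, 83 alternative values were computed, of which 5 turned direction. None of these results passed a threshold under any setting, since 4 arms allow no p under 0.125 and 3 arms none under 0.25. The density ratio stayed under 1 in all 13 alternatives, from 0.439 with 1 Mb windows to 0.733 with 3 Mb windows, and was 0.478 without 3R. Either replicate list alone gave 0.525 to 0.526. The median length difference (-95 bp) became 22 bp above the median score, 53 bp for clusters found in both replicates, and -29 to 28.5 bp in the replicate lists alone. The difference in median log2 score (-0.012) became 0.0078 for clusters found in both. The difference in the share found in neither (6.32 percentage points) became -0.36 at 1301 bp or more, where clusters shorter than any replicate cluster are left out. Among 36 alternative ratios of single arms, 28 stayed within the counting interval of the reported one without crossing 1, and 7 left it without crossing 1. The remaining 1 crossed 1, on 3R, from 0.960 to 1.01 with 3 Mb windows. Crossing was counted whether or not the value stayed within the interval. The 7 were 0.235 on 2L, 0.160 on 3L and 0.428 on X with 1 Mb windows, 0.707 on 2L and 0.554 on 3L with 3 Mb windows, 0.282 on 3L at 1301 bp or more and 0.727 on 3R above the median score. The median spacing was wider in the windows in all 12 alternatives, by 1428 to 12595 bp. No cause was tested for any of these changes. No paired analysis was possible because each ChIP replicate is 1 list and the inputs have no list of their own. Leaving out a replicate means using the other list alone, which gives no share by replicate support. What sequencing depth limits could not be measured, as no read counts were used.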
